A study of Mus musculus with 10 samples.

Results

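The genes described here are 7 genes of MHC class II antigen presentation: Ciita, H2-Aa, H2-Ab1, H2-Eb1, Cd74, H2-DMa and H2-DMb1. They are 7 of the 23420 gene rows that each library holds, and all 7 were among the 15265 genes tested. They were chosen by symbol, after the differences of H2-Aa, H2-Eb1 and Cd74 between these same libraries were known, so the members' own differences are given as a description with no test. PolyA RNA was sequenced from mouse testes at postnatal day 18 (P18), when the first wave of germ cells has entered meiosis. Tubules were digested with collagenase and trypsin and the cells were passed through a filter, and the labels call the result spermatogenic cells; no sort for a cell type is described. There were 5 libraries labelled Ino80cKO and 5 labelled Ino80WT. In Ino80cKO mice the gene Ino80, which encodes an ATP-dependent chromatin remodeller, is deleted with Stra8-Cre, a Cre recombinase driven by a promoter that is active in male germ cells. Ino80WT mice are the control genotype, and the labels do not say whether they carry the Cre or the floxed alleles. Both groups are P18 and of mixed strain background. Class II genes differ in sequence between mouse H2 haplotypes, and the labels do not give the haplotypes of these mice.

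MHC class II molecules are pairs of an alpha and a beta chain that display peptides from endocytosed proteins to CD4+ T cells. Dendritic cells, macrophages and B cells make most of them, and interferon gamma can induce them in other cells. Transcription of the whole set depends on CIITA, which does not bind DNA itself but docks on the factors RFX, CREB and NF-Y at a conserved promoter module with X and Y boxes. The invariant chain, the product of Cd74, fills the groove of new alpha and beta pairs until proteases trim it, and H2-DM then exchanges the remaining peptide. In the mouse testis, macrophages that lie around the tubules carry class II at their surface, whereas those of the interstitium carry little.

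Promoter sequences are shown first because class II genes are known for a common promoter module. Of the 7 members, H2-Aa, H2-Eb1, H2-DMa and H2-DMb1 had an entry in the RefSeq promoter table of build GRCm38.p6, with windows of 300 bases from 250 bases before to 50 after each start. H2-Ab1, Ciita and Cd74 had no entry there. Stretches of 90 bases are printed 5′ to 3′ on the gene's own strand. Capitals mark the letters CTNGNNAC, a shortened X1 motif, and ATTGG, which is CCAAT read on the other strand and the core of the Y box. H2-Aa is shown at chr17:34287843-34287932 (minus strand), H2-Eb1 at chr17:34305748-34305837 (plus strand) and H2-DMb1 at chr17:34153069-34153158 (plus strand).
H2-Aa: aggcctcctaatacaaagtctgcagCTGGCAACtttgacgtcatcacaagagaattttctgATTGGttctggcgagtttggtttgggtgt
H2-Eb1: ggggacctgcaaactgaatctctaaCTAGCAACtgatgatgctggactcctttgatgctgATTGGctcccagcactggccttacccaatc
H2-DMb1: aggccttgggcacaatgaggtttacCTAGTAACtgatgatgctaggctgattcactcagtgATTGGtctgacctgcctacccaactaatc

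In these 3 promoters the shortened X1 letters were followed by ATTGG after a gap of 28 bases in H2-Aa, 27 in H2-Eb1 and 28 in H2-DMb1. The X1 letters began 84, 94 and 97 bases before the start of H2-Aa, H2-Eb1 and H2-DMb1, and ATTGG began 48, 59 and 61 bases before it. These distances are to the RefSeq starts. In the GENCODE annotation used for the gene positions below, H2-DMb1 starts at 34153072, ahead of both motifs, so there they lie inside the gene. On either strand, CTNGNNAC alone was found in 41.4% and CCAAT alone in 37.4% of 32817 promoters of the same length, and the longer X1 motif CCNNGNNAC in 47.4%. The 3 motifs share letters but were counted separately. The shortened letters followed by ATTGG after 10 to 30 bases were found in 193 promoters (0.588%). The shortened letters and this spacing were chosen after the members' sequences were seen; of the 3 printed stretches, CCNNGNNAC lies at the pair in H2-DMb1 and not in H2-Aa or H2-Eb1. Neither of the 2 listed windows of H2-DMa held the pair. H2-Aa and H2-Eb1, which differed between the genotypes in the same direction, and H2-DMb1, which differed in the opposite one, all hold it. These matches are letters in a window and were not measured as binding.

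Gene counts per library ran from 16750609 to 23700094, and levels are given as CPM, counts scaled to library size with TMM factors. A floor of 3 counts was 0.117 to 0.189 CPM over the 10 libraries, which covers counting error only. Ino80 itself had 94.5, 94.7, 96.9, 97.5 and 96.7 CPM in Ino80cKO libraries 1 to 5, and 75.8, 101.0, 110.1, 93.1 and 94.8 CPM in Ino80WT libraries 1 to 5. Its log2 fold change was 0.02 ± 0.09 (edgeR's quasi-likelihood test, Benjamini-Hochberg adjusted p = 0.889), and since the labels do not say which part is deleted, this count checks nothing about the labels. All directions below rest on the labels. The labels do not tie libraries to single animals, so the tests weigh differences against a spread between libraries that can be technical in part. Ino80WT libraries 1 and 2 had the highest shares of counts from Rn45s, which encodes the precursor of ribosomal RNA (7.08% and 4.66%). The other libraries ran from 1.60% to 3.76%, so Ino80WT 1 stood apart more clearly than Ino80WT 2. Member values without both are given below. In bulk samples, fewer cells of a type and less RNA per cell cannot be told apart.

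Ciita, the master regulator of class II transcription (chromosome 16, positions 10480059 to 10528418, plus strand, mm10), was close to the detection floor in both genotypes. It had 1.37, 0.617, 0.494, 0.491 and 0.692 CPM in Ino80cKO libraries 1 to 5, against 0.252, 0.353, 0.0944, 0.224 and 0.298 CPM in Ino80WT libraries 1 to 5. Every Ino80cKO library lay above every Ino80WT library, and Ino80cKO 1 lay far above the other Ino80cKO libraries. The raw counts behind these values were 35, 14, 10, 10 and 14 in Ino80cKO and 4, 7, 2, 5 and 5 in Ino80WT. No Ino80WT library reached the filter's minimum of 10 counts, so Ciita was tested only because of its level in Ino80cKO and had to differ. The mean was 0.733 ± 0.366 CPM in Ino80cKO and 0.244 ± 0.0969 CPM in Ino80WT (SD, n = 5 each), 3.05-fold higher in Ino80cKO (log2 1.61 ± 0.40, SE).

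H2-Aa encodes the alpha chain of I-A, the class II molecule that laboratory mouse strains share (chromosome 17, positions 34282744 to 34287823, minus strand). Its level was 17.5, 6.08, 10.2, 6.14 and 10.5 CPM in Ino80cKO libraries 1 to 5, against 4.03, 2.72, 0.661, 1.03 and 4.95 CPM in Ino80WT libraries 1 to 5. The groups did not overlap, and Ino80WT libraries 3 and 4 were far lower than the other Ino80WT libraries. In counts the lowest Ino80cKO library held 125 and the highest Ino80WT library 83. The mean was 10.1 ± 4.67 CPM in Ino80cKO and 2.68 ± 1.85 CPM in Ino80WT (SD, n = 5 each), which is 3.87-fold higher in Ino80cKO (log2 1.95 ± 0.47). By this value H2-Aa was number 9 from the top of the 15265 tested genes.

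H2-Ab1 encodes the beta chain that pairs with H2-Aa (chromosome 17, positions 34257689 to 34269419, plus strand). Its level was 18.6, 8.51, 9.54, 12.5 and 11.3 CPM in Ino80cKO libraries 1 to 5, against 12.3, 10.6, 8.35, 5.87 and 11.3 CPM in Ino80WT libraries 1 to 5. The groups overlapped, with 2 Ino80cKO libraries above all Ino80WT libraries. The mean was 12.1 ± 3.94 CPM in Ino80cKO and 9.69 ± 2.59 CPM in Ino80WT (SD, n = 5 each), a log2 fold change of 0.33 ± 0.23 that is within the spread between libraries. Both chains of I-A were thus detected in every library, but not in a fixed proportion. Per kilobase of transcript, H2-Aa stood at 0.529 to 1.15 times H2-Ab1 in the Ino80cKO libraries and at 0.0850 to 0.472 times in the Ino80WT libraries, with no overlap.

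H2-Eb1 encodes the beta chain of I-E, the second class II molecule (chromosome 17, positions 34305867 to 34316674, plus strand). It had 14.5, 4.72, 5.98, 5.50 and 7.12 CPM in Ino80cKO libraries 1 to 5, against 3.71, 2.01, 0.519, 0.538 and 3.69 CPM in Ino80WT libraries 1 to 5. As for H2-Aa, the groups did not overlap, Ino80cKO 1 was the highest library and Ino80WT 3 and 4 were the lowest. The mean was 7.57 ± 3.99 CPM in Ino80cKO and 2.10 ± 1.59 CPM in Ino80WT (SD, n = 5 each), 3.74-fold higher in Ino80cKO (log2 1.90 ± 0.51). The alpha chain gene of I-E is inactive in some mouse strains; its row here, H2-Ea-ps, is listed as a pseudogene and had 0 counts in all 10 libraries, which allows up to 0.117 to 0.189 CPM per library. Per kilobase of transcript, H2-Eb1 stood at 0.397 to 0.606 times H2-Aa in Ino80cKO and at 0.353 to 0.623 times in Ino80WT, and these ranges overlapped. The size of such ratios depends on the transcript length taken. With the length of all annotated exons H2-Eb1 was above H2-Aa in every library. An antisense gene, Gm20513, overlaps H2-Eb1, and the labels do not give the strand setting of the counting, so reads of the pair may not have been told apart.

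Cd74, the invariant chain on chromosome 18, had the highest level per kilobase of transcript among the members in every Ino80cKO library. It had 39.2, 16.8, 19.6, 19.2 and 25.8 CPM in Ino80cKO libraries 1 to 5, against 9.76, 7.50, 2.97, 3.05 and 9.47 CPM in Ino80WT libraries 1 to 5. The lowest Ino80cKO library was above the highest Ino80WT library, and Ino80WT 3 and 4 were again the lowest. The mean was 24.1 ± 9.04 CPM in Ino80cKO and 6.55 ± 3.35 CPM in Ino80WT (SD, n = 5 each), 3.73-fold higher in Ino80cKO (log2 1.90 ± 0.36). Cd74 is not in the H2 cluster, so the genes that were higher lie on 3 chromosomes. Cd74 per kilobase of transcript stood at 1.54 to 2.50 times H2-Aa in Ino80cKO and at 1.53 to 3.60 times in Ino80WT, whereas it stood at 1.32 to 1.96 times H2-Ab1 in Ino80cKO and at 0.306 to 0.723 times in Ino80WT.

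H2-DMa and H2-DMb1 encode the alpha and beta chains of H2-DM, the peptide exchange factor of endosomes. H2-DMa (chromosome 17, positions 34119541 to 34139101, plus strand) had 4.07, 4.06, 6.18, 6.19 and 3.51 CPM in Ino80cKO libraries 1 to 5, against 4.91, 4.28, 3.77, 4.57 and 4.35 CPM in Ino80WT libraries 1 to 5. The Ino80cKO libraries fell on both sides of the Ino80WT libraries, with a mean of 4.80 ± 1.28 CPM in Ino80cKO and 4.38 ± 0.416 CPM in Ino80WT (SD, n = 5 each; log2 0.13 ± 0.18). H2-DMa overlaps Brd2, an abundant gene with 510.2 ± 63.9 CPM in Ino80cKO and 518.6 ± 94.9 CPM in Ino80WT, and 8.43% of its 50-base words also occur in Brd2, so its level is uncertain.

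H2-DMb1 (chromosome 17, positions 34153072 to 34160230, plus strand) was the member that was lower. It had 1.41, 1.45, 1.53, 1.18 and 1.48 CPM in Ino80cKO libraries 1 to 5, against 3.78, 3.68, 3.68, 1.43 and 3.58 CPM in Ino80WT libraries 1 to 5. Of the Ino80WT libraries, number 4 alone lay within the range of Ino80cKO, and the other 4 were tightly grouped well above it. The mean was 1.41 ± 0.137 CPM in Ino80cKO and 3.23 ± 1.01 CPM in Ino80WT (SD, n = 5 each), 2.27-fold lower in Ino80cKO (log2 -1.18 ± 0.25). A near copy, H2-DMb2, shares 22.7% of the 50-base words of H2-DMb1, and reads with several alignments were listed as not unique, so H2-DMb1 may be undercounted. H2-DMb2 itself had 3 counts over the Ino80cKO libraries and 10 over the Ino80WT libraries. Per kilobase of transcript, H2-DMa stood at 2.004 to 4.45 times H2-DMb1 in Ino80cKO and at 0.869 to 2.70 times in Ino80WT, where the highest ratio was that of Ino80WT 4.

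**Figure D1:**
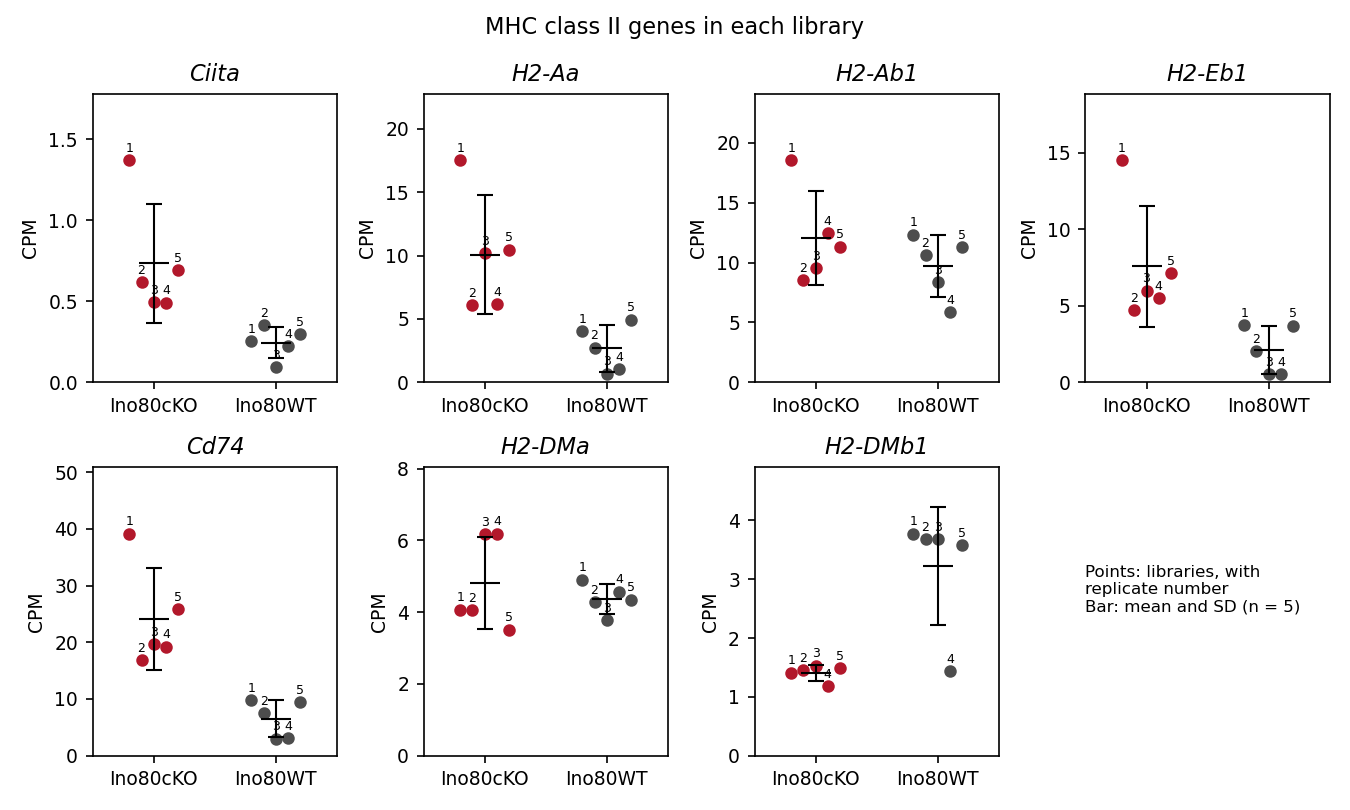
Level of each of the 7 class II genes in each library, in CPM on linear axes from 0, with Ino80cKO left and Ino80WT right; points are libraries with their replicate number, and bars are mean and SD (n = 5). The groups are apart for Ciita, H2-Aa, H2-Eb1 and Cd74, overlap for H2-Ab1 and H2-DMa, and for H2-DMb1 overlap through Ino80WT 4 (1.43 CPM) alone.

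The median log2 fold change of the 7 members was 1.61, against 0.02 over all tested genes, and 6 of the 7 were above 0. This median is the value of Ciita, which was tested only because of its level in Ino80cKO. The counts of members below include Ciita. Individual values ran from -1.18 to 1.95. At an adjusted p below 0.05 in edgeR, 4 members were called higher (Ciita, H2-Aa, H2-Eb1 and Cd74) and 1 lower (H2-DMb1), where 18.3% of all tested genes were called higher and 27.6% lower (2793 genes higher and 4220 lower; 5484 higher and 2937 lower when scaled by library totals). The groups did not overlap for 4 members, all higher, where 9.96% of tested genes were without overlap and higher and 22.0% without overlap and lower. Since the members were chosen with this contrast known, these counts are a description of them. Without Ino80WT libraries 1 and 2, the log2 fold changes were 2.31 for H2-Aa, 2.40 for H2-Eb1, 2.32 for Cd74, 1.92 for Ciita, 0.57 for H2-Ab1, 0.23 for H2-DMa and -0.97 for H2-DMb1. The sum of the 7 genes was 42.2 CPM in the lowest, 53.5 in the median and 96.6 in the highest Ino80cKO library, against 16.7, 31.2 and 38.8 CPM in Ino80WT. Cd74 made up 36.7% to 42.7% of that sum in Ino80cKO and 14.8% to 25.2% in Ino80WT, and H2-Ab1 17.8% to 24.4% in Ino80cKO and 29.95% to 41.6% in Ino80WT, shares of counts that also reflect transcript length.

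Levels of different genes were compared per kilobase of the longest transcript with a consensus coding sequence. In Ino80cKO, Cd74 stood first at 17.1 ± 6.41 CPM per kilobase, above H2-Ab1 (9.97 ± 3.25) in 5 of 5 libraries. H2-Aa (8.94 ± 4.14) did not differ from H2-Ab1 beyond the spread, being lower in 3 of 5 libraries, and H2-Eb1 followed at 4.53 ± 2.39 (SD, n = 5). H2-DMa (2.90 ± 0.773) was below H2-Eb1 in 3 of 5 libraries, and H2-DMb1 (1.01 ± 0.098) and Ciita (0.122 ± 0.061) came last, each without overlap with its neighbour above.

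In Ino80WT the order began with H2-Ab1 at 7.99 ± 2.13 CPM per kilobase, above Cd74 (4.65 ± 2.37) in 5 of 5 libraries. H2-DMa (2.64 ± 0.251), H2-Aa (2.37 ± 1.64) and H2-DMb1 (2.30 ± 0.716) could not be ordered against each other, since each pair of neighbours changed places between libraries. H2-Eb1 (1.26 ± 0.952) lay below H2-DMb1 in 5 of 5 libraries, and Ciita was at 0.041 ± 0.016. The order depends on the transcript length taken. With the length of all annotated exons, Cd74 and H2-Ab1 in Ino80WT were at 3.90 and 3.77 CPM per kilobase, with Cd74 higher in 3 of 5 libraries. By that length H2-Eb1 was above H2-Aa in 5 of 5 libraries of each genotype, the reverse of the order given above. In Ino80cKO they were then at 3.89 and 2.66 CPM per kilobase, and in Ino80WT at 1.08 and 0.705.

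**Figure D2:**
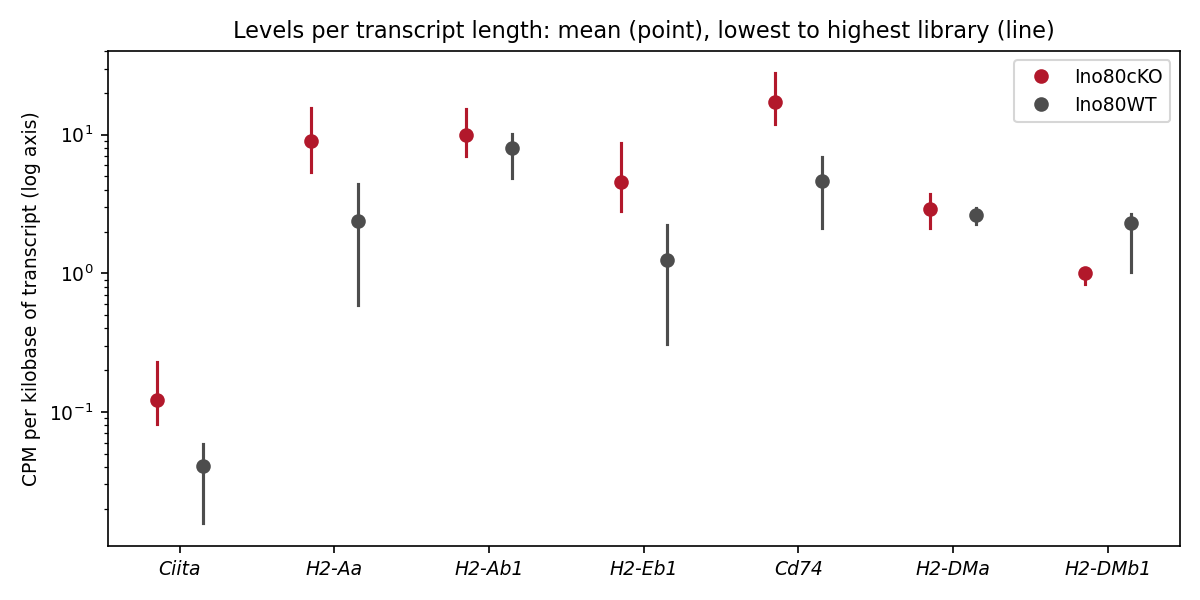
Level per kilobase of the longest transcript with a consensus coding sequence, on a log axis, for each member, with Ino80cKO (red) left of Ino80WT (grey); points are means of 5 libraries and lines run from the lowest to the highest library. Ciita lies at 0.122 in Ino80cKO and 0.041 in Ino80WT, below the other members in both, and the lines of H2-Ab1, H2-DMa and H2-DMb1 overlap between genotypes.

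The spread between libraries of one genotype was itself wide for part of the members. The highest Ino80cKO library held 2.88 times the lowest for H2-Aa and the highest Ino80WT library 7.49 times the lowest, and for H2-Eb1 these ratios were 3.08 in Ino80cKO and 7.15 in Ino80WT. The biological coefficient of variation estimated by edgeR was 51.0% for H2-Aa, 55.7% for H2-Eb1 and 38.2% for Cd74. Among 1299, 1209 and 1897 genes of like level, 99.1%, 99.2% and 98.8% had a smaller one than H2-Aa, H2-Eb1 and Cd74. By this measure H2-Ab1 (25.7%), Ciita (30.03%), H2-DMb1 (24.5%) and H2-DMa (18.7%) varied less than those genes. For their own level, 91.8%, 83.4%, 73.4% and 57.7% of genes had a smaller one.

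These swings were shared between 3 of the genes. In Ino80cKO, H2-Aa, H2-Eb1 and Cd74 each ranked the libraries in the order 1, 5, 3, 4, 2 from high to low. In Ino80WT, H2-Eb1 and Cd74 ranked them 1, 5, 2, 4, 3, and H2-Aa differed only by the exchange of 5 and 1. As log2 deviations from the mean of its own genotype, Ino80WT 3 was at -1.53 for H2-Aa, -1.41 for H2-Eb1 and -0.93 for Cd74, and Ino80cKO 1 was at 0.91, 1.05 and 0.77. Over the 10 libraries, the deviations of H2-Aa and H2-Eb1 differed by a root mean square of 0.224, and each was the nearest of all tested genes to the other. Cd74 was the second nearest gene to both, at 0.303 from H2-Aa and 0.322 from H2-Eb1. These deviations leave the genotype difference out, but the 10 points share their libraries and depths, so they are a description.

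The other members followed this pattern less or not at all. Ciita was number 15 in nearness to Cd74 (0.402) and number 21 to H2-Aa (0.596), and its counts were 2 to 35 per library. Ranked from Ciita instead, Cd74 was number 851 and H2-Aa number 13009. H2-Ab1 was number 5 in nearness to Cd74 (0.345) and number 37 to H2-Aa (0.626), with the direction of most libraries alike and smaller swings. Ranked from H2-Ab1 instead, Cd74 was number 949 and H2-Aa number 14397. The deviations of Ciita and H2-Ab1 had a root mean square of 0.454 and 0.383, smaller than their differences from H2-Aa. Their ranks from Cd74 and H2-Aa thus do not make them close followers. H2-DMa was number 8334 in nearness to H2-Aa and H2-DMb1 number 1027. In Ino80WT 3, the lowest library for H2-Aa, H2-Eb1 and Cd74, H2-DMb1 was at 3.68 CPM, as high as in Ino80WT 2.

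**Figure D3:**
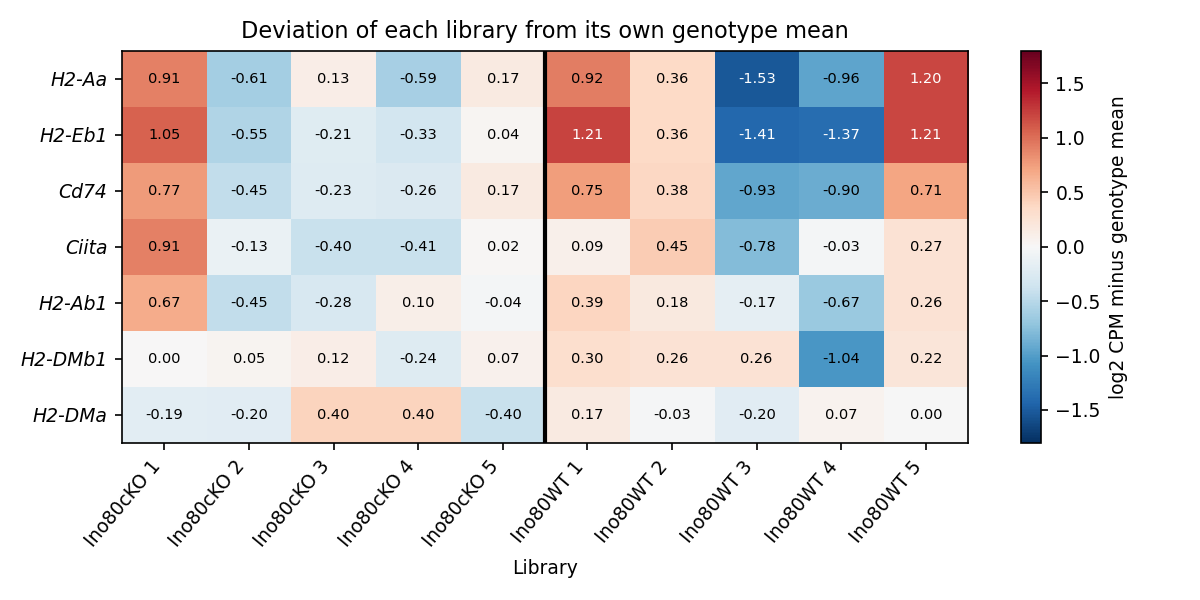
Log2 deviation of each library from the mean of its own genotype, members in rows and libraries in columns, Ino80cKO left of the black line and Ino80WT right of it; red is above and blue below the mean. H2-Aa, H2-Eb1 and Cd74 share high values in Ino80cKO 1, Ino80WT 1 and Ino80WT 5 and low values in Ino80WT 3 and 4, and the single strong value of H2-DMb1 is -1.04 in Ino80WT 4.

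Of the genes that are no members, the 8 whose deviations were nearest to the mean of the 7 members were Abhd1, Kcnj2, Uba7, Myct1, Tspan8, Alox5ap, 4833417C18Rik and Grk1, at root mean square differences of 0.234 to 0.266 over 10 libraries. The mean pattern of the members itself had a root mean square of 0.462. Of these 8, Uba7, the activating enzyme for the ubiquitin-like modifier ISG15, was higher, with 3.23 ± 0.604 CPM in Ino80cKO and 1.48 ± 0.471 CPM in Ino80WT (SD, n = 5 each; log2 1.15 ± 0.23, edgeR adjusted p = 0.00146). The other 7 did not pass.

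The remaining genes of the class II locus were nearly silent in both genotypes. None of the 5 (H2-Ea-ps, H2-Eb2, H2-DMb2, H2-Oa and H2-Ob) had enough counts for a test. H2-Oa and H2-Ob encode H2-O, an inhibitor of H2-DM known from B cells and some dendritic cells. H2-Oa had 10 counts summed over the Ino80cKO libraries and 4 over the Ino80WT libraries, and H2-Ob had 8 counts over the Ino80cKO libraries and 2 over the Ino80WT libraries. H2-Eb2 had 2 counts over the Ino80cKO libraries and 6 over the Ino80WT libraries. H2-DMb2 was at 0 to 0.0494 CPM in Ino80cKO and 0.0596 to 0.179 CPM in Ino80WT, without overlap, but with at most 4 counts in a library. Differences in these genes were not tested.

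The 5 members of the H2 cluster span 197.1 kilobases of chromosome 17, positions 34119541 to 34316674, which 7 other gene rows share, 5 of them tested. Of these 5, 3 were higher, namely Tap1, Tap2 and Psmb8, and Psmb9 and Brd2 did not pass. All but Brd2 belong to class I presentation, in which the TAP transporter carries peptides made by the immunoproteasome. Tap1 was at 8.30 ± 2.02 CPM in Ino80cKO and 3.95 ± 0.750 CPM in Ino80WT (SD, n = 5 each; log2 1.07 ± 0.19, edgeR adjusted p = 0.000742). Tap2 had a log2 fold change of 0.73 ± 0.18 (adjusted p = 0.00683) and Psmb8 one of 0.99 ± 0.23 (adjusted p = 0.00439). So genes that were higher, lower and without a call lie side by side in this stretch.

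The factors that CIITA docks on did not move as Ciita did. Of 7 genes listed for the RFX, NF-Y and CREB factors, 1 was higher, 3 were lower and 3 did not pass, with a median log2 fold change of -0.13; scaled by library totals, 3 were higher and 2 lower. Rfx5, the largest RFX subunit, had 36.5, 36.4, 34.7, 36.5 and 33.9 CPM in Ino80cKO libraries 1 to 5, against 54.4, 68.6, 56.0, 50.5 and 58.7 CPM in Ino80WT libraries 1 to 5. The groups did not overlap, and Rfx5 fell to 35.6 ± 1.25 CPM in Ino80cKO, against 57.6 ± 6.84 CPM in Ino80WT (SD, n = 5 each; log2 -0.69 ± 0.08, edgeR adjusted p = 8.53e-05). Rfxap, the RFX-associated protein, fell to 32.9 ± 3.86 CPM in Ino80cKO, against 49.3 ± 6.09 CPM in Ino80WT (log2 -0.58 ± 0.10, adjusted p = 0.000768). The ankyrin-repeat subunit Rfxank was at 13.9 ± 1.32 CPM in Ino80cKO and 15.1 ± 2.002 CPM in Ino80WT and did not pass (log2 -0.13 ± 0.11, adjusted p = 0.365).

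Of the NF-Y subunits, which bind the Y box, Nfya was higher by 0.23 ± 0.07 on the log2 scale (adjusted p = 0.0215) and Nfyb fell by 0.26 ± 0.07 (adjusted p = 0.0116), changes smaller than those of the 5 called members. The call of Nfya was lost without Ino80cKO replicate 2, and that of Nfyb with the replicate block, with library totals as the scaling, and without Ino80WT libraries 1 and 2. Nfyc and Creb1 each had a log2 fold change of 0.05, within the spread between libraries. These factors serve many genes beside the class II set. Germ cell markers, described below, were lower as well, and their part in the falls of Rfx5 and Rfxap was not tested.

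**Figure D4:**
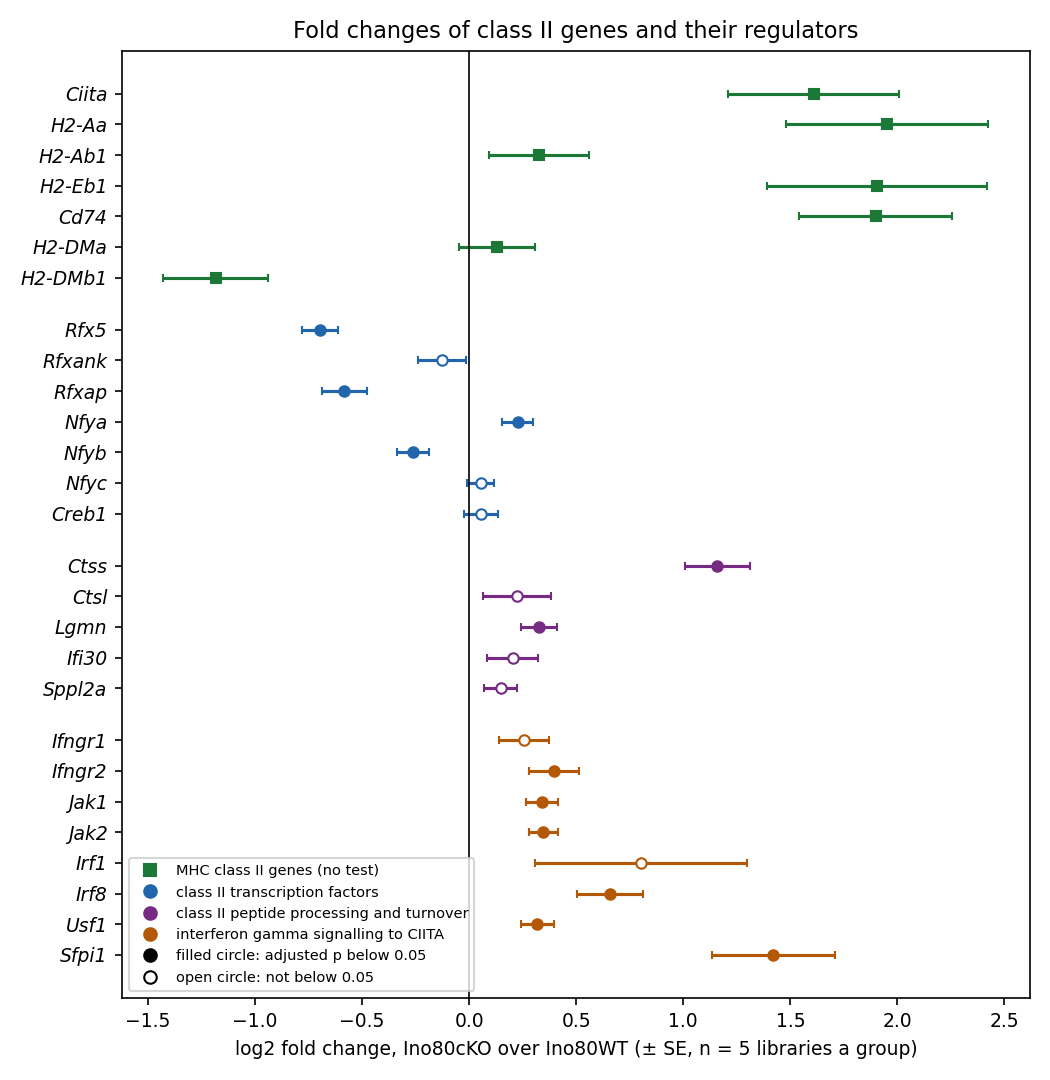
Log2 fold change of Ino80cKO over Ino80WT with its SE (n = 5 libraries a group) for the members (squares, no test), the RFX, NF-Y and CREB genes, the peptide processing genes and interferon gamma genes (circles, filled where the adjusted p is below 0.05). H2-Aa, H2-Eb1, Cd74 and Ciita lie between 1.61 and 1.95, whereas Rfx5 and Rfxap lie at -0.69 and -0.58.

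Genes for making and turning over the class II peptide were partly higher. Of 6 listed, 5 were tested, of which 2 rose, none fell and 3 did not pass, with a median log2 fold change of 0.22. Ctss, cathepsin S, the protease that trims the invariant chain in antigen-presenting cells, had 8.30, 6.17, 7.36, 5.60 and 7.56 CPM in Ino80cKO libraries 1 to 5, against 3.15, 3.02, 2.64, 2.91 and 3.99 CPM in Ino80WT libraries 1 to 5. It was thus higher in every Ino80cKO library, at 6.999 ± 1.09 CPM in Ino80cKO and 3.14 ± 0.510 CPM in Ino80WT (SD, n = 5 each; log2 1.16 ± 0.15, edgeR adjusted p = 0.000128). Ino80WT 3 and 4, the libraries with the lowest Cd74, were also the lowest for Ctss, at 2.64 and 2.91 CPM, but within a much narrower range.

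Lgmn, the asparaginyl endopeptidase legumain, rose by 0.33 ± 0.08 on the log2 scale (adjusted p = 0.00755). Ctsl, the cathepsin that serves the same step in thymic epithelium and is abundant in Sertoli cells, was at 965.9 ± 203.6 CPM in Ino80cKO and 827.7 ± 151.9 CPM in Ino80WT and did not pass (log2 0.22 ± 0.16, adjusted p = 0.267). The thiol reductase Ifi30 (log2 0.20 ± 0.12) and the intramembrane protease Sppl2a, which removes the last fragment of the invariant chain (log2 0.15 ± 0.08), did not pass either. March1, a ubiquitin ligase that removes class II from the cell surface, was too low for a test, with 52 counts over the Ino80cKO libraries and 13 over the Ino80WT libraries.

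Genes listed for interferon gamma signalling towards the CIITA promoters were mostly higher by smaller steps, apart from Sfpi1 (log2 1.42). Of 10 listed, 9 were tested, of which 7 rose, none fell and 2 did not pass, with a median log2 fold change of 0.40. The 7 include Sfpi1 and Irf8, factors of leukocyte lineages that are described below. Jak2, a kinase bound to the receptor, had 67.9, 66.0, 66.8, 60.5 and 65.5 CPM in Ino80cKO libraries 1 to 5, against 50.8, 52.5, 48.7, 48.5 and 56.5 CPM in Ino80WT libraries 1 to 5. It was higher in every Ino80cKO library, by 0.35 ± 0.07 on the log2 scale (edgeR adjusted p = 0.00144). Of the receptor chains, Ifngr2 rose by 0.40 ± 0.12 (adjusted p = 0.0152) and Ifngr1, with 0.26 ± 0.12, did not pass (adjusted p = 0.0884). The kinase Jak1 rose by 0.34 ± 0.07, and Usf1, which binds a CIITA promoter, rose by 0.32 ± 0.08.

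Ifng itself had 1 count over the Ino80cKO libraries and 2 over the Ino80WT libraries, so no level of the cytokine could be measured. Irf1, an interferon-induced factor that binds the same CIITA promoter, had 16.1, 17.8, 14.2, 15.3 and 76.8 CPM in Ino80cKO libraries 1 to 5, against 12.1, 11.5, 30.5, 15.6 and 10.2 CPM in Ino80WT libraries 1 to 5. One library in each genotype stood far above the rest, and the difference did not pass (log2 0.80 ± 0.50, adjusted p = 0.202). The high Ino80WT library was number 3, in which H2-Aa and Cd74 were lowest.

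Sfpi1, an older symbol of Spi1, and Irf8 encode factors of the macrophage, dendritic cell and B cell lineages that act on the CIITA promoters of those cells. Sfpi1 was higher at 0.866 ± 0.0719 CPM in Ino80cKO, against 0.315 ± 0.155 CPM in Ino80WT (SD, n = 5 each; log2 1.42 ± 0.29, edgeR adjusted p = 0.00173). Its counts were 24, 21, 16, 18 and 16 in Ino80cKO libraries 1 to 5 and 4, 5, 4, 13 and 5 in Ino80WT libraries 1 to 5, so it passed the filter of 10 counts through its level in Ino80cKO and its count among the genes that rose carries that choice. Irf8 rose to 4.34 ± 0.650 CPM in Ino80cKO, against 2.75 ± 0.425 CPM in Ino80WT (log2 0.66 ± 0.15, adjusted p = 0.00456).

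Markers of leukocytes moved in the same direction as Cd74, H2-Aa, H2-Eb1 and Ciita. Of 5 pan-leukocyte genes (Ptprc, Laptm5, Coro1a, Cd52 and Cd53), 5 were higher and their median log2 fold change was 0.85. Cd52 had 3 and 9 counts in Ino80WT libraries 1 and 2, and Cd53 had 8 in Ino80WT 1, below the filter's minimum count. Every Ino80cKO library was above that minimum for both genes. Counting Cd52 and Cd53 among the higher genes thus carries in part the choice described for Ciita and Sfpi1. The summed level of the 5 genes was 12.0 to 16.4 CPM in Ino80cKO and 5.98 to 8.61 CPM in Ino80WT. These sums did not overlap, and Ino80cKO 1 was the highest. In Ino80WT the sum was lowest in library 1, a library in which H2-Eb1 and Cd74 were highest, so the order of the Ino80WT libraries was another one for this sum than for these members. The call of Ptprc was lost without Ino80WT library 2, 4 or 5 and without Ino80cKO library 1, 2, 4 or 5, and that of Cd52 without Ino80WT library 2 and without Ino80cKO library 1, 3 or 5. Laptm5 and Coro1a kept theirs under all 17 alternatives tried, and 3 of the 5 genes were called without Ino80WT 1 and 2.

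Of 12 macrophage genes, 8 were higher, none was lower and 4 did not pass, with a median log2 fold change of 0.82. Fcgr1, counted among the 8, likewise passed the filter through its level in Ino80cKO. Without Ino80WT 1 and 2, 6 of the 12 were higher. Their sum was 126.0 to 170.9 CPM in Ino80cKO and 88.7 to 122.3 CPM in Ino80WT, again without overlap. Ino80WT 3, the lowest for H2-Aa, H2-Eb1 and Cd74, was the lowest Ino80WT library for this sum as well. Ino80WT 4, the next lowest for these members, was the highest. Csf1r, the receptor for the macrophage growth factor, rose to 11.2 ± 0.789 CPM in Ino80cKO, against 6.46 ± 1.26 CPM in Ino80WT (SD, n = 5 each; log2 0.79 ± 0.14, edgeR adjusted p = 0.000811). Mertk, a phagocytosis receptor that Sertoli cells use too, rose by 0.54 ± 0.10, and Mrc1 and Lyz2, with 0.18 ± 0.14 and 1.18 ± 0.46, did not pass.

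Dendritic cells and B cells carry class II as well. Of 7 dendritic cell genes, 4 were tested and 0 were called by edgeR or DESeq2, with 0 at an unadjusted p below 0.05 in edgeR, at a median log2 fold change of 0.08, with sums of 24.0 to 30.8 CPM in Ino80cKO and 22.0 to 26.1 CPM in Ino80WT. Zbtb46, a factor of conventional dendritic cells, was at 16.2 ± 2.97 CPM in Ino80cKO and 13.3 ± 1.32 CPM in Ino80WT, the receptor Flt3 was at 7.31 ± 2.05 CPM in Ino80cKO and 7.55 ± 1.42 CPM in Ino80WT, and the chemokine receptor Xcr1 was at 2.44 ± 0.429 CPM in Ino80cKO and 2.11 ± 0.579 CPM in Ino80WT (SD, n = 5 each). The dendritic cell sum was thus above the pan-leukocyte sum in both genotypes. It is largely Zbtb46 and Flt3, each above Ptprc (2.77 CPM in Ino80cKO and 1.69 CPM in Ino80WT, means). The sum thus follows mainly those genes and does not measure dendritic cell content alone. The untested genes of the list were low. Cd209a had 0 counts in all 10 libraries, and Clec9a had 3 counts over the Ino80cKO libraries and 0 over the Ino80WT libraries. Itgax had 38 counts over the Ino80cKO libraries and 8 over the Ino80WT libraries. Its groups did not overlap, at 0.198 to 0.431 CPM in Ino80cKO and 0.0504 to 0.126 CPM in Ino80WT, a difference that was not tested. Among B cell genes, Ms4a1 had 2 counts over the Ino80cKO libraries and 0 over the Ino80WT libraries, Cd79b had 5 over Ino80cKO and 7 over Ino80WT, and Cd79a had 40 over Ino80cKO and 21 over Ino80WT. Of 6 endothelial genes, 0 were called by edgeR and 1 by DESeq2, with 0 at an unadjusted p below 0.05 in edgeR, and sums of 45.0 to 82.0 CPM in Ino80cKO and 39.9 to 68.7 CPM in Ino80WT.

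Markers of the bulk of the sample moved as well. Of 7 germ cell genes, 5 were lower, none was higher and 2 did not pass, and their sum was 2672 to 3502 CPM in Ino80cKO and 4299 to 5612 CPM in Ino80WT, without overlap. Of 7 Sertoli cell genes, 4 were higher, with sums of 3565 to 4657 CPM in Ino80cKO and 2494 to 3730 CPM in Ino80WT. Without Ino80WT library 5 or Ino80cKO library 2, 2 of these 7 were higher, and without Ino80WT 1 and 2 there were 5. The labelled cell type is thus present in all libraries, beside transcripts of somatic cells. Among Ino80WT libraries, number 3, the lowest for H2-Aa, H2-Eb1 and Cd74, had the lowest Sertoli sum (2494 CPM) and the highest germ cell sum (5612 CPM). Ino80WT 4, the next lowest for these members, was at 2891 and 4389 CPM, neither lowest nor highest. The part of such shifts, between genotypes or libraries, in the members' differences was not tested.

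Set against the summed pan-leukocyte level of the same library, the members differed in direction. The median ratio of Cd74 was 1.63 in Ino80cKO and 0.871 in Ino80WT, and the groups overlapped on this scale (1.27 to 2.38 in Ino80cKO, 0.358 to 1.63 in Ino80WT). For H2-Aa the medians were 0.721 in Ino80cKO and 0.316 in Ino80WT, for H2-Eb1 0.490 in Ino80cKO and 0.234 in Ino80WT, and for Ciita 0.0468 in Ino80cKO and 0.0350 in Ino80WT. The remaining members had lower ratios in Ino80cKO. For H2-Ab1 the medians were 0.794 in Ino80cKO and 1.23 in Ino80WT, for H2-DMa 0.308 in Ino80cKO and 0.510 in Ino80WT, and for H2-DMb1 0.102 in Ino80cKO and 0.427 in Ino80WT, without overlap between genotypes for H2-DMb1. Set against the summed macrophage level, the directions of the medians were the same, but the overlap was not. Cd74 did not overlap on that scale (0.112 to 0.264 in Ino80cKO, 0.0249 to 0.0976 in Ino80WT), whereas H2-DMb1 overlapped narrowly (0.00690 to 0.01176 in Ino80cKO, 0.01173 to 0.0415 in Ino80WT). The macrophage sum is largely Mrc1 and Mertk, the latter used by Sertoli cells too. Mrc1 was at 54.8 CPM in Ino80cKO and 48.4 CPM in Ino80WT, and Mertk at 46.5 and 32.0 CPM (means). These ratios thus follow mainly those genes and do not measure macrophage content alone.

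**Figure D5:**
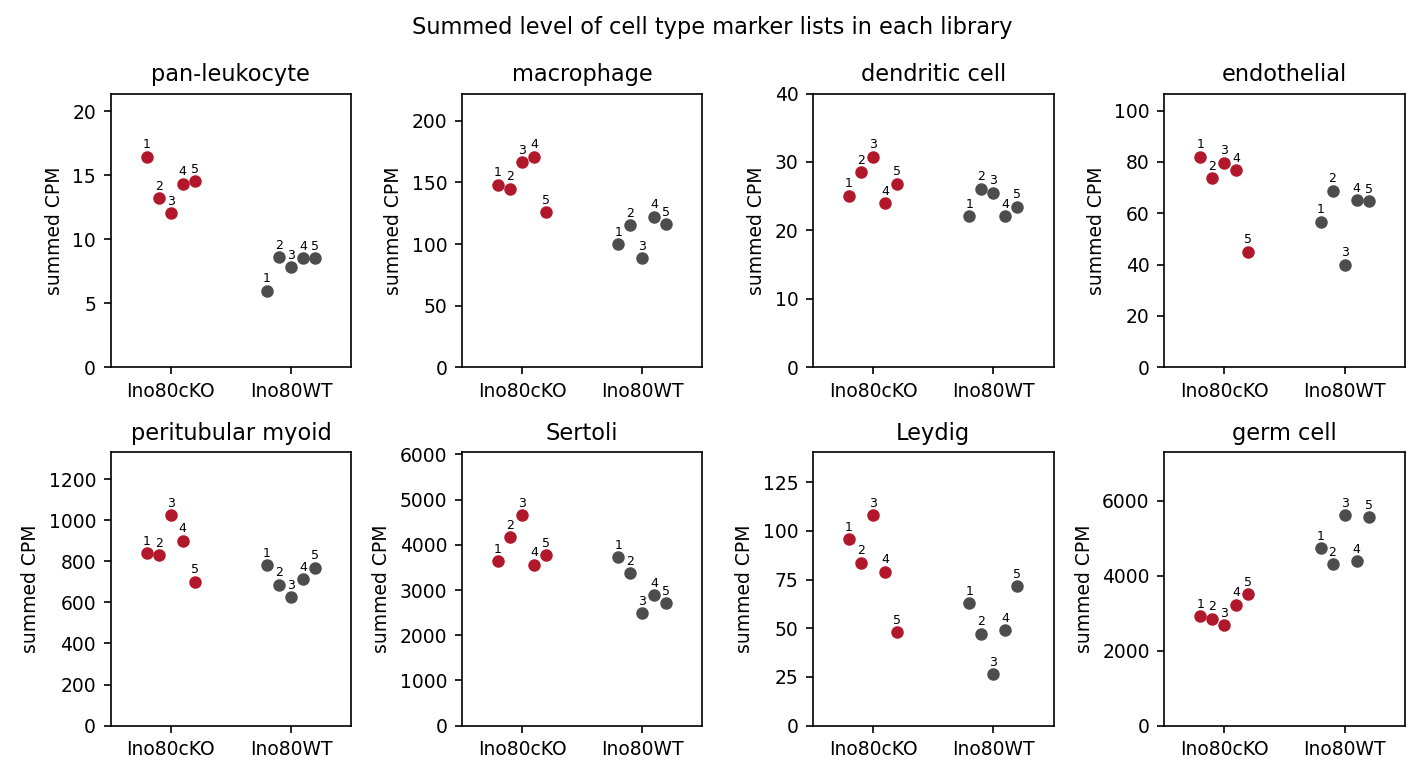
Summed CPM of 8 lists of cell type markers in each library, on linear axes from 0, Ino80cKO left and Ino80WT right, points numbered by replicate. The pan-leukocyte and macrophage sums are higher and the germ cell sum is lower in every Ino80cKO library than in every Ino80WT library, whereas the other 5 sums overlap.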

How the data were processed

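The deposited files, 1 for each library, give raw counts of reads per gene as whole numbers. Per the submitters' processing notes, TopHat2, HTSeq, DESeq2 and the mm10 build were used; the labels give no versions, roles, gene annotation or strand setting. Beside 23420 genes, each file has 5 rows without a gene, which took 35.5% to 44.0% of reads (18.4% to 26.3% not unique) and were left out throughout. Genes were filtered with filterByExpr (minimum count 10, minimum total 15), scaled by TMM and fitted with edgeR 4.0.16 in R 4.3.3 (robust quasi-likelihood test, genotype as the sole term); a call is a Benjamini-Hochberg adjusted p below 0.05 over all 15265 tested genes. Errors of log2 fold changes are SE, errors of CPM are SD, and log2 CPM used a prior count of 2.

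The code was tested on simulated data with the levels and spreads of the 15265 genes of this comparison. There 91% of 100 genes given a 2-fold change were called, and 42% of 100 given a log2 change of 0.5. No other genes were given a change, whereas 7013 were called in the data, so these percentages are not detection rates of this comparison. Chi-square per degree of freedom was at least 9.43 for every pair of libraries in a group, so none was a duplicate. Alternatives were a replicate block, DESeq2's size factors, library totals, no filter, DESeq2 1.42.0, no robust estimation, each library left out, and, added after seeing the data, both Ino80WT 1 and 2 left out.

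Members and lists (other class II locus genes, class II transcription factors, peptide processing, interferon gamma signalling, class I presentation and cell type markers) were chosen with earlier results of these data known. Named genes are all members, the genes of the class II and interferon gamma lists, up to 4 of each marker list with the highest mean CPM, and the 8 tested genes nearest to the members' mean deviation; other names were chosen after their values were seen. A few listed genes are counted with their lists but not reported here by name. Symbols were placed with a GENCODE annotation of the same build. Genes of like level are those within 0.5 of the average log2 CPM. Overlap between transcripts was counted as shared 50-base words.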

Additional observations from a re-analysis of the deposited data

Results flagged for a closer look

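In 8 of 90 groups of 5 libraries examined, the gap between the highest or lowest library and its neighbour was more than 0.71 of the whole range; chance alone gives about 1 in 20. Among the members, H2-Eb1 was at 14.5 CPM in Ino80cKO 1, with the other Ino80cKO libraries at 4.72 to 7.12 CPM. Ciita was at 1.37 CPM in the same library, with the others at 0.491 to 0.692 CPM. Without Ino80cKO replicate 1 the log2 fold change was 1.52 for H2-Eb1 and 1.23 for Ciita. H2-DMb1 was at 1.43 CPM in Ino80WT 4, with the other Ino80WT libraries at 3.58 to 3.78 CPM, and without that library its log2 fold change was -1.38.

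Among the regulators, Irf1 was at 76.8 CPM in Ino80cKO 5, with the others at 14.2 to 17.8 CPM, and at 30.5 CPM in Ino80WT 3, with the others at 10.2 to 15.6 CPM. Sfpi1 was at 0.583 CPM in Ino80WT 4, with the others at 0.189 to 0.298 CPM. Nfyc was at 78.7 CPM in Ino80WT 1, with the others at 67.6 to 69.8 CPM. The summed endothelial markers were at 45.0 CPM in Ino80cKO 5, with the other Ino80cKO libraries at 73.6 to 82.0 CPM.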

How the results depend on the processing

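The members were chosen with their differences known, so their values under the 17 alternatives describe the spread and support nothing. Leaving out 1 library gave log2 fold changes of 1.65 to 2.30 for H2-Aa, 1.52 to 2.24 for H2-Eb1, 1.65 to 2.11 for Cd74, 1.23 to 1.79 for Ciita, 0.12 to 0.45 for H2-Ab1, 0.03 to 0.22 for H2-DMa and -1.38 to -1.10 for H2-DMb1. Scaling by library totals moved the median of all genes from 0.02 to 0.19 and the count of genes called higher from 2793 to 5484, with 2937 lower against 4220. Of 93 other single genes examined, 47 were called, and 33 of these kept the call in every alternative. Replicate numbers occur in both genotypes, and the labels do not say whether they pair the libraries. Deviations of log2 CPM from the genotype mean were correlated across genes between same-numbered libraries. These correlations were 0.20, 0.11, -0.47, -0.17 and -0.18 for numbers 1 to 5. An Ino80cKO library correlated best with the Ino80WT library of its own number for number 1 alone. So few values cannot exclude a pairing. With the replicate block 5493 genes were called in place of 7013, the median of the members was 1.52, and the pan-leukocyte genes called fell to 2. Genes of a few counts, such as H2-Oa, did not pass the filter, so no call is given for them.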

Other observations

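Class I presentation, which loads peptides from the cytosol and which the CIITA relative NLRC5 activates, was partly higher. Of 9 genes, 6 rose, none fell and 3 did not pass, with a median log2 fold change of 0.73. Nlrc5 had 4.78, 4.01, 1.19, 1.72 and 2.87 CPM in Ino80cKO libraries 1 to 5, against 1.20, 0.856, 1.70, 0.762 and 1.19 CPM in Ino80WT libraries 1 to 5 (log2 1.36 ± 0.37, edgeR adjusted p = 0.0103). The groups overlapped, and Ino80WT 3, in which H2-Aa, H2-Eb1 and Cd74 were lowest, was the highest Ino80WT library for Nlrc5. B2m, the light chain of class I, rose to 88.6 ± 29.8 CPM in Ino80cKO, against 42.4 ± 9.76 CPM in Ino80WT (SD, n = 5 each; log2 1.07 ± 0.23, adjusted p = 0.00336). Tapbp rose by 0.24 ± 0.08, a call that was lost in 8 of the 17 alternatives. The heavy chain genes H2-K1 and H2-D1, which have close relatives, had log2 fold changes of 0.19 ± 0.12 and 0.38 ± 0.23 and did not pass.

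Of the marker lists not described above, the T and NK cell list had 1 of 7 genes tested, Cd3e, with no call (log2 0.30 ± 0.19), and the monocyte and neutrophil list had 1 of 4, Ccr2, with no call (log2 0.53 ± 0.22). Of 5 Leydig cell genes tested 3 were higher, and of 4 peritubular cell genes 1 was, a count that was 0 without Ino80WT library 2, 3 or 4 and without Ino80cKO library 1, 2, 3 or 4. The Leydig count was 1 without Ino80WT 3.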
